A study of Mus musculus with 12 samples.

Results

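Wnt ligands, their antagonists and 2 genes that read out the pathway were followed across the bladders of newborn mice. They comprised the ligands Wnt4, Wnt5a, Wnt7b and Wnt2, the transcription factor Lef1, the feedback gene Axin2, and the secreted antagonists Sfrp1, Sfrp2, Dkk2 and Dkk3. Antagonist is used here as a family label, since Dkk2 can also activate the pathway and Dkk3 is not a classical antagonist. Every probe set whose only gene symbol in the platform's annotation was 1 of these was taken, which found all 10 genes among the 18193 genes with a probe set of their own. The 10 genes had 22 probe sets, of which 18 had a mean above the filter on dim signal and were tested. Each gene is represented by its probe set of highest mean level, and the other probe sets are named where they are used.

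Wnt proteins are secreted, lipid-modified ligands that bind Frizzled receptors on nearby cells. In the canonical branch, binding stabilises beta-catenin, which enters the nucleus and acts with the TCF/LEF factors, of which Lef1 is one, to turn on targets such as Axin2, a scaffold that in turn promotes the breakdown of beta-catenin. Other ligands, Wnt5a the best known of them, signal mostly without beta-catenin, through cell polarity and calcium. Sfrp proteins carry a Frizzled-like domain that binds Wnt ligands outside the cell, and Dkk proteins of the classical type bind the co-receptors Lrp5 and Lrp6. In the bladder the pathway is known for signalling between the urothelium, the epithelium that lines the lumen, and the stroma beneath it.

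Bladders were taken whole at postnatal day 1 (Theiler stage 27) from the FVB/N strain, all labelled male and none pooled, and their total RNA was hybridised to 12 one-colour Affymetrix arrays. In SMGA/EGFP mice (3 arrays) a transgene from the smooth muscle gamma actin gene, Actg2, drove a green fluorescent protein, in SMAA/EYFP mice (3 arrays) 1 from the smooth muscle alpha actin gene, Acta2, drove a yellow one, and wild-type mice (6 arrays) carried neither. The stated aim was to find what transgene expression does to the bladder's expression profile. Both transgenes came from sires mated to FVB/N females, so genotype and sire cannot be told apart, and nothing in the labels says whether wild-type pups were littermates or whether the arrays of a group came from separate litters. P-values therefore measure only the spread between these arrays.

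Median intensity per array ran from 229 to 306, and the correlation of log2 levels between any pair of arrays lay between 0.948 and 0.986. Acta2 and Actg2, which define smooth muscle, ranked 7 and 29 among all genes by mean level. The samples have 12 consecutive database record numbers: the first 6 belong to the SMGA/EGFP bladders and wild types 1 to 3, the last 6 to the SMAA/EYFP bladders and wild types 4 to 6. The labels do not call these runs batches, but the wild-type means of the 2 runs differ in some of the genes below, and the 2 transgenic groups lie in different runs. Wild type 4, labelled male, had a Xist intensity of 29604, against 80.1 to 250 on the other 11 arrays, and Y-linked genes near background. Without that array no log2 difference of the 10 genes moved by more than 0.0509. The 6 mesothelial markers averaged -1.45 to -1.15 in SMGA/EGFP bladders, 0.43 to 1.24 in SMAA/EYFP bladders and -0.14 to 0.75 in wild type, in log2 units around each marker's mean, and 4 of the 6 passed between the transgenic groups and 3 for SMGA/EGFP against wild type, all lower in SMGA/EGFP bladders. The other 7 cell type lists had no gene past the threshold in any comparison, though some had differences mostly of 1 sign. Of 19 urothelial markers, 18 had a difference above 0 in SMGA/EGFP and 19 in SMAA/EYFP against wild type (medians 0.16 and 0.24 in log2), and all 10 endothelial markers had one below 0 in both (medians -0.28 and -0.25). In SMGA/EGFP against wild type, all 9 leukocyte markers were below 0 (median -0.26) and 8 of 9 for neurons and Schwann cells were above 0 (median 0.98). The fibroblast list had 8 of 10 markers below 0 in SMGA/EGFP and 9 of 10 in SMAA/EYFP (medians -0.08 and -0.14). Within wild type, the mesothelial level was -0.14, -0.13 and 0.04 in wild types 1 to 3 and 0.67, 0.75 and 0.38 in wild types 4 to 6. The level for neurons and Schwann cells was 1.26, 0.77 and -0.34, and -0.80, -1.34 and -0.97, in the same order. The part of the cell type lists in the results below was not tested, beyond the relations given there.

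None of the 4 ligands passed the threshold in any comparison. Wnt4, a ligand required for kidney tubule formation and female reproductive tract development, had intensities of 4394, 4757 and 3690 in SMGA/EGFP bladders, 6056, 3722 and 4890 in SMAA/EYFP bladders, and 3533 to 5502 with a median of 3907 in wild type. The 3 ranges overlapped, and SMAA/EYFP 1 was the highest array. On the normalized log2 scale Wnt4 differed by 0.08 ± 0.17 (SE; adjusted p = 0.936, limma) between SMGA/EGFP and wild type and by 0.23 ± 0.17 (adjusted p = 0.991) between SMAA/EYFP and wild type. Its second probe set ran in parallel over the 12 arrays (r = 0.945).

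Wnt7b, a ligand made by epithelia and known in the urothelium, had intensities of 657, 709 and 727 in SMGA/EGFP bladders, 885, 655 and 832 in SMAA/EYFP bladders, and 495 to 895 with a median of 604 in wild type. SMAA/EYFP 1 and 3 and wild type 2 were the 3 high arrays, and the groups overlapped. The SMAA/EYFP minus wild type difference was 0.36 ± 0.17 in log2, with a 95% interval of -0.01 to 0.73 (unadjusted p = 0.0564, adjusted p = 0.991). For SMGA/EGFP minus wild type it was 0.10 ± 0.17 (adjusted p = 0.912).

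Wnt5a, a mesenchymal ligand that guides outgrowth and cell polarity, varied most among the ligands. Its intensities were 2438, 2934 and 3504 in SMGA/EGFP bladders, 927, 2761 and 2142 in SMAA/EYFP bladders, and 1081 to 3738 with a median of 1775 in wild type. SMAA/EYFP 1 was the lowest array and wild type 1 the highest, and both lay outside the SMGA/EGFP range. On the log2 scale the difference was 0.56 ± 0.36 for SMGA/EGFP minus wild type (adjusted p = 0.764) and -0.15 ± 0.36 for SMAA/EYFP minus wild type (adjusted p = 0.995). Over the 6 wild-type arrays Wnt5a had an SD of 0.64 in log2, which exceeded the SD of 96.9% of the tested probe sets.

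Wnt2, a ligand of fetal stroma best known from the developing lung, had intensities of 3810, 3339 and 3210 in SMGA/EGFP bladders, 3917, 4242 and 3330 in SMAA/EYFP bladders, and 3330 to 5364 with a median of 4733 in wild type. Wild types 3, 4, 5 and 6 stood above every transgenic array, while wild types 1 and 2 lay among the SMGA/EGFP ones. In log2 terms it differed by -0.34 ± 0.16 for SMGA/EGFP minus wild type (unadjusted p = 0.0591, adjusted p = 0.724) and -0.20 ± 0.16 for SMAA/EYFP minus wild type (adjusted p = 0.991). In whole bladders, fewer cells of a type and less RNA per cell cannot be told apart.

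**Figure D1:**
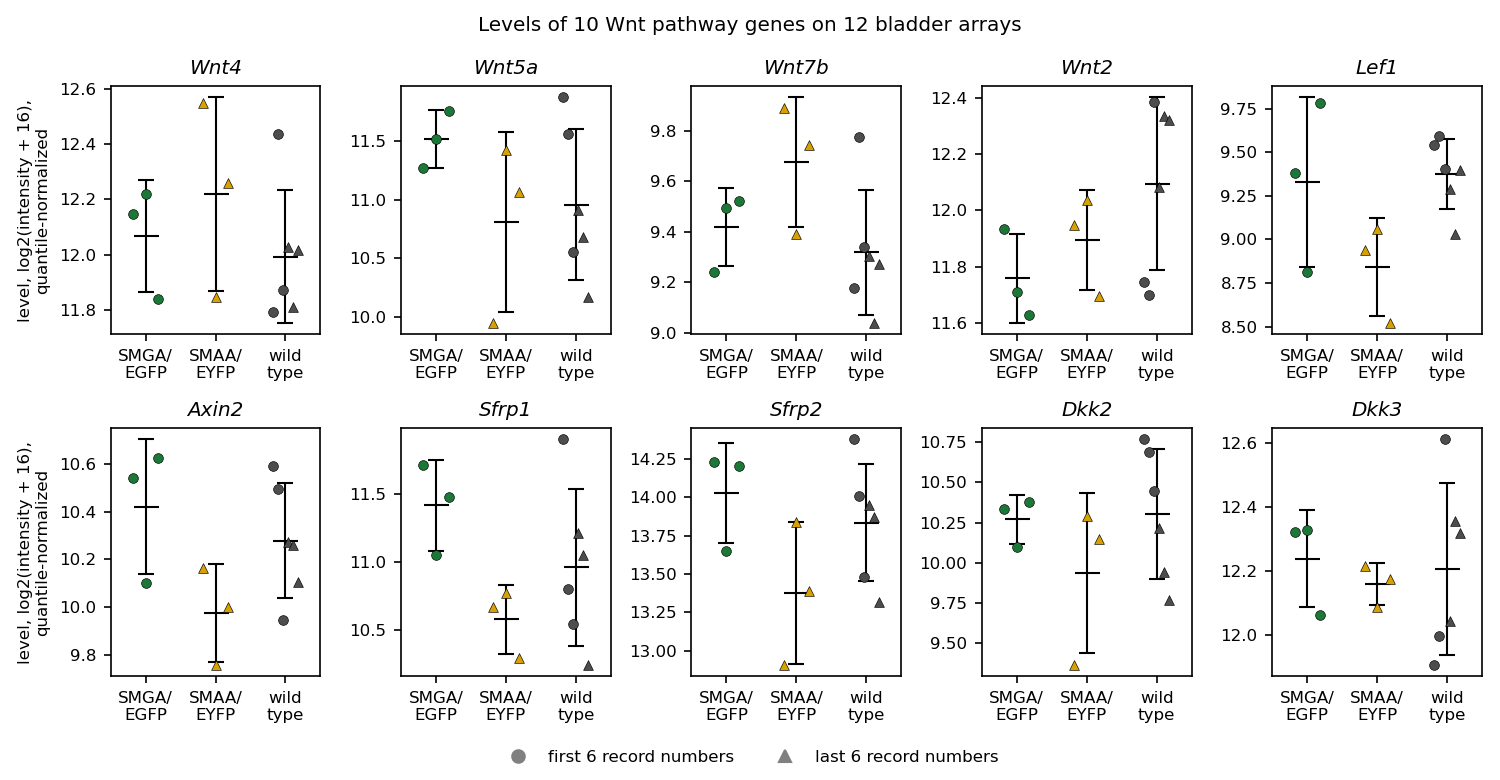
Normalized log2 level of the 10 genes in SMGA/EGFP, SMAA/EYFP and wild-type bladders, with a point for each of the 12 arrays. Bars show the mean and SD of a group, and the marker shape shows the run of record numbers. Wnt5a and Sfrp1 spread widely within wild type, in deposited intensity from 1081 to 3738 and from 1141 to 3826. For none of the 10 genes did a transgenic group separate from the wild-type arrays.

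Lef1 and Axin2 stand for what the ligands do in the nucleus. Lef1 had intensities of 719, 430 and 877 in SMGA/EGFP bladders, 430, 515 and 349 in SMAA/EYFP bladders, and 493.02 to 792 with a median of 624 in wild type. SMAA/EYFP 1 and 3 were below all wild-type arrays, SMAA/EYFP 2 was not, and SMGA/EGFP 2 was as low as SMAA/EYFP 1. The SMAA/EYFP minus wild type difference was -0.54 ± 0.21 in log2, a ratio of 0.690, with a 95% interval of -0.98 to -0.09 (unadjusted p = 0.0220, adjusted p = 0.991). It did not pass. For SMGA/EGFP minus wild type the difference was -0.05 ± 0.21 (adjusted p = 0.969).

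Axin2 had intensities of 1497, 1088 and 1584 in SMGA/EGFP bladders, 1085, 857 and 1005 in SMAA/EYFP bladders, and 923 to 1574 with a median of 1216 in wild type. Every SMGA/EGFP intensity was above every SMAA/EYFP one, by a narrow margin between SMGA/EGFP 2 and SMAA/EYFP 1, and after normalization those 2 arrays overlapped. The difference between the transgenic groups was 0.45 ± 0.19 in log2 (unadjusted p = 0.0368, adjusted p = 0.516), and against wild type it was 0.14 ± 0.17 for SMGA/EGFP (adjusted p = 0.859) and -0.31 ± 0.17 for SMAA/EYFP (adjusted p = 0.991). Lef1 and Axin2 correlated with r = 0.649 over the 12 arrays (adjusted permutation p = 0.107 over 45 pairs), which did not pass.

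The start regions of Axin2 and Lef1 are shown because canonical signalling is read out through short TCF/LEF motifs. RefSeq promoter windows were matched for 6 of the 10 genes, 9 windows in all, and the 250 bases before each start were searched on both strands for CTTTGAA, for CTTTGAT, for CTTTGTA and for CTTTGTT, which differ in their last letters and cannot overlap each other on the same strand. Of all 32851 windows of that length, 14.8% held at least 1 of them, and 1 of the 9 windows did. It was an internal start of Lef1, with TACAAAG, the reverse of CTTTGTA, beginning at -147 from the start. The Axin2 window also precedes an internal start, since the annotated span of Axin2 on the plus strand of chromosome 11 begins at 108917828. The windows are given on the plus strand of GRCm38.p6, 5′ to 3′, with the match in capitals, at chr11:108920099-108920348, chr3:131110047-131110296 and chr3:131156044-131156293.
Axin2: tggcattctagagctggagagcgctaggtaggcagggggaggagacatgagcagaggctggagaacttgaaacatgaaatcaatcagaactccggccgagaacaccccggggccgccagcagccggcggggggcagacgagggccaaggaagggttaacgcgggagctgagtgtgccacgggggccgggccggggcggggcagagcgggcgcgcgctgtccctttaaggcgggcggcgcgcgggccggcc
Lef1, upstream start: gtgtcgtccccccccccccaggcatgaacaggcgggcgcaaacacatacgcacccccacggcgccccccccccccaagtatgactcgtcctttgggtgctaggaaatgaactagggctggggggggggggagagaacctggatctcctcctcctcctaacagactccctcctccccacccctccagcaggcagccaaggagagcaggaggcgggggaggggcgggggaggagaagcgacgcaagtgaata
Lef1, internal start: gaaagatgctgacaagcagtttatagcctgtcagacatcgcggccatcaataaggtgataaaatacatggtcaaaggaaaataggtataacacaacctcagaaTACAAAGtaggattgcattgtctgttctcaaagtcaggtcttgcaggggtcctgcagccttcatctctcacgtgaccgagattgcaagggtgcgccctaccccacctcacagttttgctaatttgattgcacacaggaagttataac
A match is a run of letters and not a shown binding site, and the lack of one covers these windows only.

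Among the antagonists, Sfrp2 and Sfrp1 had the widest gaps between the transgenic groups. Sfrp2, a stromal antagonist and the brightest of the 10 probe sets, had intensities of 19340, 12899 and 18278 in SMGA/EGFP bladders, 7747, 14519 and 10751 in SMAA/EYFP bladders, and 10449 to 20888 with a median of 15349 in wild type. SMGA/EGFP 2 was below SMAA/EYFP 2, so the groups overlapped. The SMGA/EGFP minus SMAA/EYFP difference was 0.65 ± 0.26 in log2 (unadjusted p = 0.0282, adjusted p = 0.494). Against wild type it was 0.19 ± 0.23 for SMGA/EGFP (adjusted p = 0.860) and -0.46 ± 0.23 for SMAA/EYFP (unadjusted p = 0.0668, adjusted p = 0.991).

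Sfrp1, another Frizzled-related antagonist of stroma, had intensities of 3282, 2113 and 2890 in SMGA/EGFP bladders, 1569, 1753 and 1244 in SMAA/EYFP bladders, and 1141 to 3826 with a median of 1948 in wild type. All 3 SMGA/EGFP arrays were above all 3 SMAA/EYFP arrays, and wild type spanned both. The difference between the transgenic groups was 0.84 ± 0.33 in log2, a ratio of 1.79, with a 95% interval of 0.13 to 1.54 (unadjusted p = 0.0231, adjusted p = 0.491). Against wild type it was 0.46 ± 0.28 for SMGA/EGFP (adjusted p = 0.761) and -0.38 ± 0.28 for SMAA/EYFP (adjusted p = 0.991).

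Sfrp1 has 5 tested probe sets, and they did not all give the same size. Probe set 1416594_at read 674, 458 and 661 in SMGA/EGFP bladders and 189, 323 and 351 in SMAA/EYFP bladders, a log2 difference of 0.95 ± 0.30 (unadjusted p = 0.00669, adjusted p = 0.401). Probe set 1460187_at read 665, 457 and 732 in SMGA/EGFP bladders and 224, 344 and 250 in SMAA/EYFP bladders, a log2 difference of 1.03 ± 0.37 (unadjusted p = 0.0137, adjusted p = 0.462). Both separated the 2 groups without passing the adjusted threshold. Probe set 1428136_at gave 0.50 (unadjusted p = 0.102) and 1438620_x_at gave 0.09. Probe set 1438620_x_at is of a type that may share sequence with other transcripts, and it followed the brightest Sfrp1 probe set with r = 0.306. The other 3 followed it with r between 0.753 and 0.874. For SMAA/EYFP minus wild type, 1416594_at gave -0.64 ± 0.26 in log2 (unadjusted p = 0.0255, adjusted p = 0.991). Its SMAA/EYFP arrays were all below wild type after normalization, while the deposited intensities overlapped. Probe set 1460187_at gave -0.66 ± 0.32 (unadjusted p = 0.0579, adjusted p = 0.991), 1428136_at -0.06 and 1438620_x_at -0.13.

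Dkk2, a Dickkopf protein that acts on the Lrp co-receptors and can inhibit or activate the pathway depending on context, had intensities of 1309, 1086 and 1336 in SMGA/EGFP bladders, 596, 1250 and 1118 in SMAA/EYFP bladders, and 802 to 1764 with a median of 1263 in wild type. SMAA/EYFP 1 was the lowest of the 12 arrays and wild types 1 and 2 the highest. Its differences in log2 were -0.03 ± 0.24 for SMGA/EGFP minus wild type (adjusted p = 0.981) and -0.37 ± 0.24 for SMAA/EYFP minus wild type (adjusted p = 0.991).

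Dkk3, a divergent family member not counted among the classical Wnt antagonists, had intensities of 4939, 5152 and 4313 in SMGA/EGFP bladders, 4726, 4391 and 4638 in SMAA/EYFP bladders, and 3828 to 6263 with a median of 4671 in wild type. Both transgenic groups lay inside the wild-type range. It had the narrowest 95% interval for SMGA/EGFP minus wild type of the 10 genes, -0.27 to 0.34 in log2 around a difference of 0.03 ± 0.14 (adjusted p = 0.970), and for SMAA/EYFP the difference was -0.05 ± 0.14 (adjusted p = 0.996).

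Counted together, none of the 10 genes and none of their 18 tested probe sets passed an adjusted p of 0.05 in any comparison. Of all 22518 tested probe sets, 0.0622% passed for SMGA/EGFP against wild type, 0% for SMAA/EYFP against wild type and 0.0799% for SMGA/EGFP against SMAA/EYFP. At an unadjusted p of 0.05, 0 of the 10 genes were called for SMGA/EGFP against wild type (6.94% of all tested), 1 for SMAA/EYFP against wild type, Lef1 (4.81%), and 3 between the transgenic groups, Axin2, Sfrp1 and Sfrp2 (9.32%). By probe set, of which some share a gene, the counts in that order were 0, 2 and 5 of 18, beside the same shares. Intensities of Axin2 and Sfrp1, 2 of the 10, did not overlap between the transgenic groups, where 14.2% of all tested probe sets did not. All 10 genes overlapped with wild type in both transgenic groups, where 2.62% of tested probe sets in SMGA/EGFP and 3.02% in SMAA/EYFP did not. The log2 difference was above 0 for 7, 2 and 7 of the 10 genes in the order of those comparisons, against 47.1%, 50.8% and 46.1% of all tested probe sets, and its median over the 10 was 0.09, -0.25 and 0.39, against -0.01, 0.00 and -0.02. The comparisons share arrays: both transgenic groups were set against the same 6 wild types, so these counts are not 3 separate observations. Between the transgenic groups the mesothelial markers moved as given above, and 7 of 9 markers of neurons and Schwann cells had a difference above 0 (median 1.12) with none past the threshold; the part of either list was not tested.

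**Figure D2:**
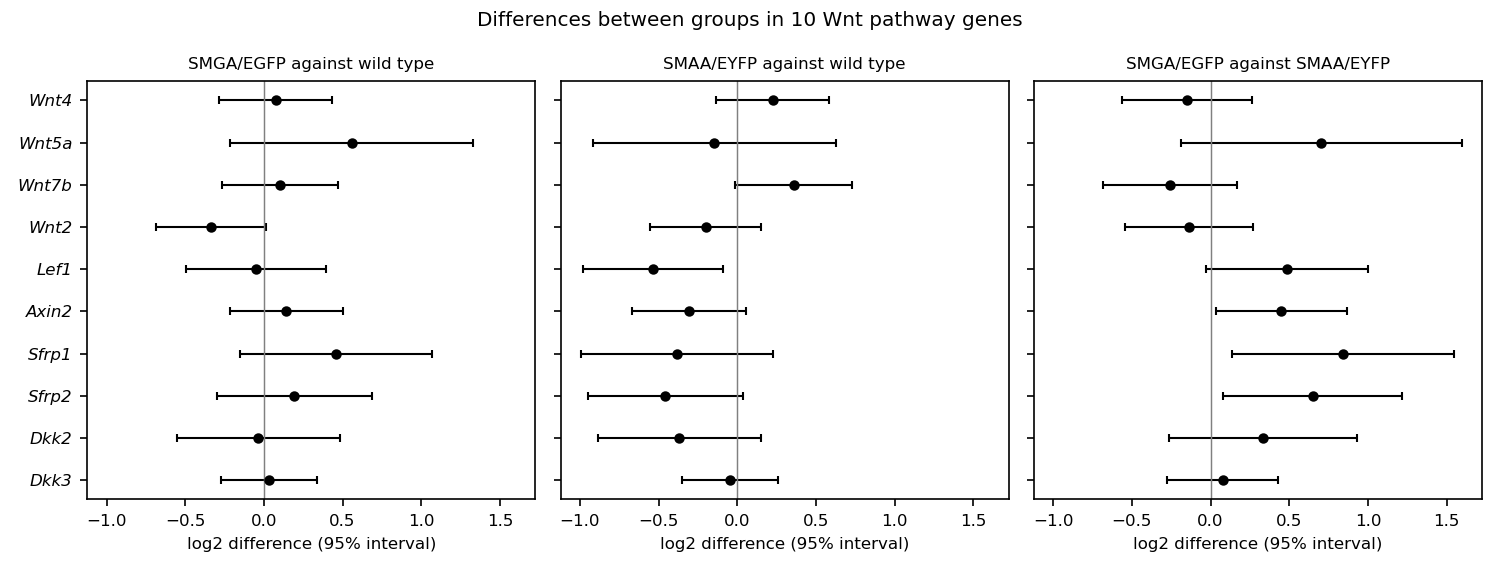
Log2 differences of the 10 genes for SMGA/EGFP minus wild type, SMAA/EYFP minus wild type and SMGA/EGFP minus SMAA/EYFP, with 95% intervals from the limma fit. Most intervals cross 0; those of Lef1 for SMAA/EYFP against wild type and of Axin2, Sfrp1 and Sfrp2 between the transgenic groups do not, and none of these passed after adjustment.

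The means of the wild-type arrays alone differed between the runs of record numbers, and these differences were not tested. Dkk2 averaged 10.63 ± 0.17 in wild types 1 to 3 and 9.97 ± 0.22 in wild types 4 to 6 (log2, SD, n = 3 each), without overlap. Wnt5a was 0.74 higher in log2 in wild types 1 to 3 than in wild types 4 to 6, with SDs of 0.69 and 0.38. Lef1 was 0.27 higher (SDs 0.10 and 0.19), Sfrp1 0.25 (SDs 0.72 and 0.52) and Sfrp2 0.25 (SDs 0.45 and 0.34). Wnt2 differed by -0.30 (SDs 0.38 and 0.14). Axin2 (0.13), Wnt4 (0.08) and Wnt7b (0.23) were also higher in wild types 1 to 3, and Dkk3 was lower (-0.07). For Wnt4 and Wnt7b the SMGA/EGFP minus SMAA/EYFP differences were below 0. The direction and the lack of overlap between these wild types were not counted over all tested probe sets. Whether the 10 genes differ from the rest of the array in this was therefore not tested.

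With the record run as a block, several differences between the transgenic groups shrank or changed sign, and none passed. The SMGA/EGFP minus SMAA/EYFP difference of Wnt5a was -0.036 ± 0.53 (SE) with the block, against 0.70 without it. That of Dkk2 was -0.33 ± 0.31, against 0.33 without it. With the block Sfrp1 was at 0.59 ± 0.47, Sfrp2 at 0.40 ± 0.37, Axin2 at 0.32 ± 0.28 and Lef1 at 0.21 ± 0.33. Without it they had been at 0.84, 0.65, 0.45 and 0.49. The other Sfrp1 probe sets differed here: with the block 1428136_at was at 0.068 ± 0.38, against 0.50 without it. The others were at 0.69 ± 0.42 (1416594_at), 0.84 ± 0.53 (1460187_at) and 0.11 ± 0.35 (1438620_x_at). For Wnt7b the difference was -0.48 ± 0.28 with the block and -0.26 without it. Set only against wild types of the same run, SMAA/EYFP bladders differed by 0.48 in Wnt7b, -0.41 in Lef1 and -0.33 in Sfrp2, and SMGA/EGFP bladders by 0.33 in Sfrp1, -0.36 in Dkk2 and -0.01 in Wnt7b.

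**Figure D3:**
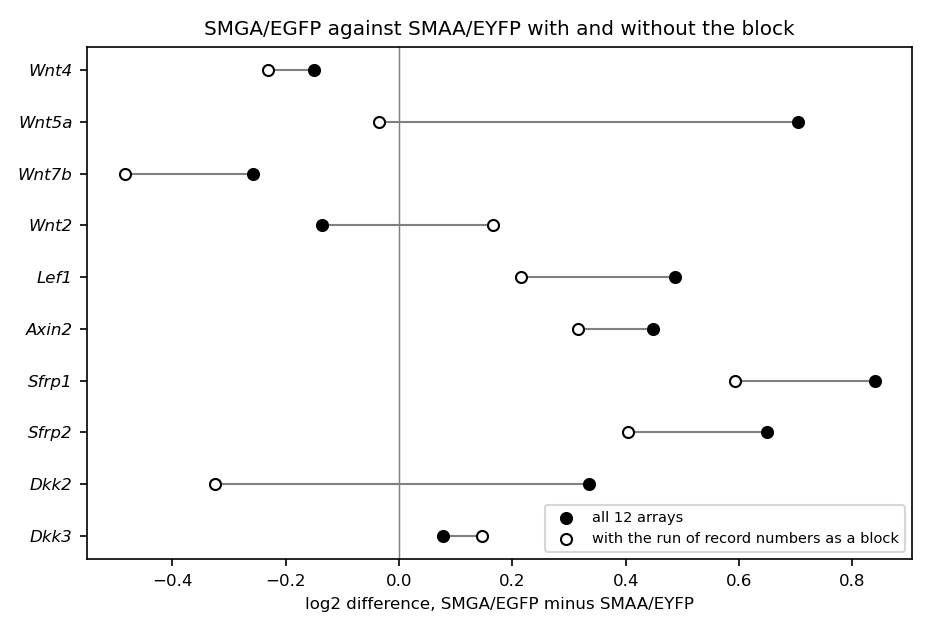
Log2 difference of each of the 10 genes between SMGA/EGFP and SMAA/EYFP bladders, without and with the record run as a block. Wnt5a sits at 0.70 without the block and at -0.036 with it, Dkk2 at 0.33 and at -0.33, and Sfrp1 at 0.84 and 0.59. The SEs with the block, which are not drawn, were 0.53, 0.31 and 0.47 for these genes.

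Levels of several of these genes moved together from bladder to bladder, over the 12 arrays of all groups together. Of the 45 pairs, 6 had a Benjamini-Hochberg adjusted permutation p under 0.05 for Pearson's r over the 12 arrays. How often pairs of any tested probe sets would pass in the same way was not counted. Sfrp1 and Sfrp2 were the closest pair (r = 0.827, rho = 0.902, adjusted p = 0.0166), and r was 0.874 in the first run of record numbers, 0.660 in the last and 0.934 in the 6 wild types. Of all tested probe sets, 0.369% lay as far out with Sfrp1 as Sfrp2 did, and 0.937% as far out with Sfrp2 as Sfrp1 did. Without the 2 arrays farthest from the median, r was 0.724.

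The ligands Wnt4 and Wnt7b had r = 0.810 and rho = 0.713 (adjusted p = 0.0166), and r = 0.669 and 0.914 within the runs, and 0.565 without the 2 farthest arrays. Of all tested probe sets, 0.133% lay as far out with Wnt4 and 0.466% with Wnt7b. Wnt5a correlated with Sfrp2 (r = 0.819, rho = 0.769, adjusted p = 0.0166), with 0.737 and 0.733 within the runs and 0.613 without the 2 farthest arrays. For this pair 1.49% of all tested probe sets lay as far out with Wnt5a and 1.1% with Sfrp2.

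Dkk2 correlated with Wnt5a (r = 0.806, rho = 0.706, adjusted p = 0.0166) and with Sfrp2 (r = 0.794, rho = 0.734, adjusted p = 0.0166). Within the first run the pair of Dkk2 and Wnt5a had r = 0.240 and within the last 0.946, and without the 2 farthest arrays it was 0.535. Dkk2 and Sfrp2 had 0.478 and 0.829 within the runs and 0.506 without the 2 farthest arrays. For Dkk2 and Wnt5a, 1.79% of all tested probe sets lay as far out with Wnt5a and 0.675% with Dkk2. For Dkk2 and Sfrp2 the shares were 1.71% with Sfrp2 and 0.888% with Dkk2. Axin2 and Sfrp1, a target and an antagonist, had r = 0.746 and rho = 0.776 (adjusted p = 0.0427), with 0.753 and 0.417 within the runs and 0.803 without the 2 farthest arrays. For this pair the shares were 1.35% with Axin2 and 1.44% with Sfrp1. All 6 pairs had r above 0 in both runs. By Spearman's rho with the same adjustment, 1 pair passed, Sfrp1 with Sfrp2 (adjusted p = 0.0090). The pairs share the same arrays and each array's normalization. Leaving out wild type 1 or wild type 6 left 0 of the 45 pairs past the threshold, and leaving out SMAA/EYFP 1 left 2.

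**Figure D4:**
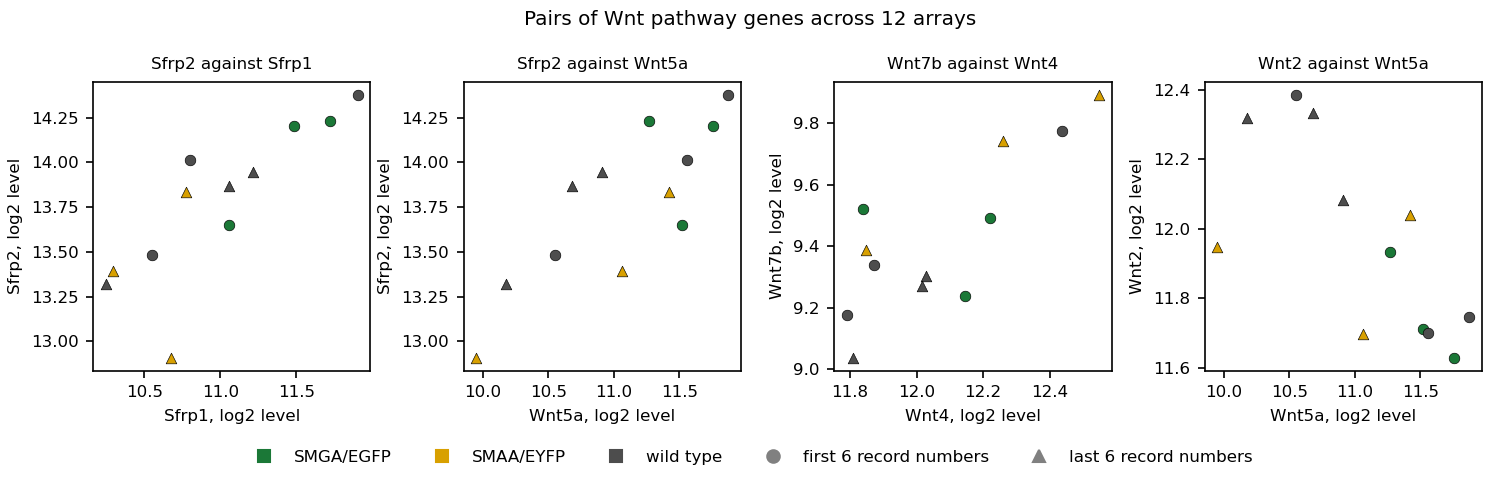
Normalized log2 levels of pairs of the 10 genes, with a point for each of the 12 arrays marked by group. Over the 12 arrays of all groups together, Sfrp1 and Sfrp2 had r = 0.827 and Wnt4 and Wnt7b r = 0.810. Within the SMGA/EGFP arrays alone, SMGA/EGFP 3 was the lowest in Wnt4 and the highest in Wnt7b.

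The levels were also set beside 8 lists of cell type markers, each list's level being the mean of its centred log2 values, over the same 12 arrays (80 relations, of which 7 had an adjusted permutation p under 0.05). How often any tested probe set would pass with these lists was not counted. Wnt7b ran against the fibroblast list (r = -0.857, rho = -0.811, adjusted p = 0.0280), with -0.829 and -0.926 within the runs and -0.884 without the 2 farthest arrays. Its relation with the list for urothelium, which is known to make it, was positive with r = 0.731 and did not pass (adjusted p = 0.0692). Of all tested probe sets, 0.258% lay as far out as Wnt7b with the fibroblast list and 2.37% with the urothelium list. Wnt4 had r = 0.443 with the urothelium list (adjusted permutation p = 0.439), and 13.8% of all tested probe sets lay as far out.

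Wnt5a ran against the smooth muscle list (r = -0.832, rho = -0.797, adjusted p = 0.0291), with -0.846 and -0.821 within the runs, and with the list for neurons and Schwann cells (r = 0.798, rho = 0.818, adjusted p = 0.0389), with 0.857 and 0.530 within the runs. Of all tested probe sets 0.449% lay as far out with the smooth muscle list and 1.84% with the list for neurons and Schwann cells. The list for neurons and Schwann cells ranged from 0.38 to 1.04 in SMGA/EGFP bladders, from -0.90 to 0.78 in SMAA/EYFP bladders and from -1.34 to 1.26 in wild type, so its spread within wild type covered the transgenic groups. The smooth muscle list had a much smaller range, -0.12 to 0.11, -0.11 to 0.10 and -0.17 to 0.18 in the same order. So did the fibroblast list, with -0.16 to 0.11, -0.16 to 0.03 and -0.12 to 0.18. Relations with these 2 lists rest on small deviations.

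Wnt2 had the most such relations. It ran with the leukocyte list (r = 0.803, rho = 0.853, adjusted p = 0.0291) and the smooth muscle list (r = 0.793, rho = 0.608, adjusted p = 0.0499), and against the list for neurons and Schwann cells (r = -0.823, rho = -0.769, adjusted p = 0.0354) and the urothelium list (r = -0.769, rho = -0.832, adjusted p = 0.0499). Within the runs these were 0.881 and 0.539, 0.788 and 0.735, -0.798 and -0.869, and -0.857 and -0.862. By Spearman's rho, the relations with the smooth muscle list (adjusted p = 0.280) and with neurons and Schwann cells (adjusted p = 0.0573) did not pass. With the fibroblast list Wnt2 had r = 0.748, which did not pass (adjusted p = 0.0692). Its rho there was 0.804, which did (adjusted p = 0.0377). Between 0.573% and 1.61% of all tested probe sets lay as far out with the 4 lists that passed by r. Without wild type 2, 5 or 6 none of the 80 relations passed, without SMGA/EGFP 2 or 3 there was 1, without wild type 3 or 4 there were 2, and without SMGA/EGFP 1 or SMAA/EYFP 3 there were 4.

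The 2 genes most like each of the 10, by Pearson's r of normalized log2 levels over the 12 arrays among all tested genes, came from many functions. Wnt7b was nearest to Cdk4, a kinase of the cell cycle (r = 0.964), and Mfsd5 (r = 0.938). Wnt2 was nearest to Mfap5, a protein of extracellular microfibrils (r = 0.959), and Tfpi2 (r = 0.957). Axin2 was nearest to Npr3, the natriuretic peptide clearance receptor (r = 0.962), and Asxl3 (r = 0.921). Wnt5a was nearest to Btg1 and Tanc2 (r = 0.955 each), Wnt4 to Psenen (r = 0.935) and Peak1 (r = 0.912), and Lef1 to Selenoh (r = 0.906) and Dhx36 (r = 0.904). Among the antagonists, Sfrp1 was nearest to the chromatin remodeller Smarca2 (r = 0.942) and Bbx (r = 0.927), Sfrp2 to Cttnbp2 (r = 0.964) and Med23 (r = 0.957), Dkk2 to Smarce1 (r = 0.941) and Adgrl3 (r = 0.921), and Dkk3 to Ctif and Comtd1 (r = 0.919 each). None of the 10 was among the 2 nearest genes of another. These genes were picked as the highest r among all tested probe sets over only 12 arrays, so a high r here is no test of a relation.

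Not every probe set of a gene followed the brightest one. Probe set 1437673_at of Wnt5a did (r = 0.942), as did the second of Dkk3 (r = 0.723). The probe sets below the filter did not: r was 0.249 for Wnt5a, -0.05 for Wnt7b, -0.35 for Lef1 and -0.10 for Axin2. The dim Lef1 probe set read 19.2 to 81.2 and the dim Wnt7b one 28.3 to 175, against at least 349 and 495 for the bright ones.

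The rest of the pathway was read from a list of 85 further Wnt genes, of which 2 had no probe set of their own, 24 were below the filter and 59 were tested. None passed in any comparison. The log2 difference was above 0 for 28 of 59 in SMGA/EGFP against wild type, 15 of 59 in SMAA/EYFP against wild type and 34 of 59 between the transgenic groups, and the medians were -0.02, -0.08 and 0.03. An unadjusted p under 0.05 was reached by 6.78%, 3.39% and 11.9% of the 59, close to the shares of all tested probe sets given above. In SMAA/EYFP against wild type, where 50.8% of all tested probe sets had a difference above 0, the count above 0 was 4 of 6 ligands, 4 of 9 antagonists, 3 of 12 receptors, 2 of 10 cytoplasmic genes, 1 of 6 planar polarity genes, 1 of 2 secretion genes, 0 of 4 further targets, 0 of 5 nuclear genes and 0 of 5 genes of the R-spondin system.

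Rspo3 is a secreted ligand that strengthens Wnt signals by sparing Frizzled receptors from breakdown. Among the tested genes of this list, it had the largest differences for SMGA/EGFP against wild type and between the transgenic groups. It had intensities of 1838, 988 and 1906 in SMGA/EGFP bladders, 124, 380 and 263 in SMAA/EYFP bladders, and 2201, 793, 189, 125, 90.1 and 115 in wild types 1 to 6. All SMGA/EGFP arrays were above all SMAA/EYFP arrays, and wild types 1 and 2 lay nearer the SMGA/EGFP bladders than the other wild types did. Its difference in log2 was 2.32 ± 0.79 for SMGA/EGFP minus wild type (adjusted p = 0.680) and 2.59 ± 0.91 for SMGA/EGFP minus SMAA/EYFP (adjusted p = 0.462). With the record run as a block they were 1.06 and 0.07. Among the genes below the filter, which were not tested, Wif1 averaged 9.31 in log2 in SMGA/EGFP bladders, 6.49 in SMAA/EYFP bladders and 7.04 in wild type. Rspo1 averaged 6.41, 8.79 and 8.01 in the same order.

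Tnfrsf19, a receptor of the TNF family and a known beta-catenin target, had intensities of 5075, 4675 and 4472 in SMGA/EGFP bladders, 2200, 3294 and 2931 in SMAA/EYFP bladders, and 2353 to 4504 in wild type. Every SMGA/EGFP array was above every SMAA/EYFP array, and SMGA/EGFP 3 was just below the highest wild type. The log2 difference was 0.78 ± 0.22 between the transgenic groups (adjusted p = 0.371), 0.85 with the block, and 0.45 ± 0.19 for SMGA/EGFP minus wild type (adjusted p = 0.718). Fzd2, a Frizzled receptor, had intensities of 4609, 6061 and 7463 in SMGA/EGFP bladders, 11193, 6933 and 9219 in SMAA/EYFP bladders and 6717 to 10928 in wild type, a log2 difference of -0.51 ± 0.18 for SMGA/EGFP minus wild type (adjusted p = 0.708). The ligand Wnt9a differed by -0.55 ± 0.20 between SMGA/EGFP and SMAA/EYFP (adjusted p = 0.464). In SMAA/EYFP against wild type the smallest p-values belonged to the ligand Wnt10a (0.61 ± 0.27), to Btrc, part of the ligase that marks beta-catenin for breakdown (-0.37 ± 0.17), and to Ctnnbip1, an inhibitor of beta-catenin binding (-0.25 ± 0.12), each with an adjusted p of 0.991.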

How the data were processed

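RNA of 12 whole bladders was measured on 1 array each. The authors deposited intensity on a linear scale for each probe set, with GCOS named as the software per the submitters' processing notes; the version, algorithm and build are not given in the sources used here. The number of arrays (3, 3 and 6) limits the precision.

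Of 45101 probe sets, 64 controls were left out. The remaining values, as log2(intensity + 16), underwent quantile normalization across the 12 arrays. The 22518 probe sets with a mean above the median of means (8.02 in log2) were tested with limma 3.58.1 in R 4.3.3, with an intensity trend, all 12 arrays in one fit, and Benjamini-Hochberg adjustment over all of them at 0.05; a fold on this scale understates the change of dim genes. Correlations used 100000 permutations (scipy 1.17.1), adjusted over 80 and 45 relations; the smallest p they can give is 1e-05.

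Gene names came from the platform's annotation: 34945 probe sets had 1 symbol, 932 several and 9160 were not listed; updating symbols changed 0. The members, marker lists and the wider list were chosen with earlier results of these data known, and the pairwise relations between members were added after seeing the data. Named besides the members were the 2 genes most like each, the 3 smallest p-values of the wider list in each comparison, and Acta2, Actg2, Xist and Y-linked genes as label checks. Alternatives were the deposited scale, median centring, pseudocounts of 1 and 64, other filters, no trend, fewer arrays, and the record run as a block.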

Additional observations from a re-analysis of the deposited data

Results flagged for a closer look

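Of 32 sets of wild-type values tested, 8 held an array whose gap to its nearest neighbour was a large share of the range; chance flags about 1 in 20. Wnt4 was high in wild type 2, with a log2 level of 12.44 where the next was 12.03. Sfrp1 probe set 1428136_at was high in wild type 1, with 11.34 where the next was 10.33. The skeletal muscle marker level was high in wild type 2, with 1.44 where the next was -0.01. Actg2 was high in wild type 6, with an intensity of 63767 where the next was 57719. Wild type 4, labelled male, stood apart in 4 label checks: Xist read 29604 where the next was 250, and the Y-linked genes read 26.7 for Eif2s3y, 28.03 for Kdm5d and 48.6 for Uty where the nearest arrays read 3786, 938 and 808.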

How the results depend on the processing

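No paired analysis was possible because nothing in the labels links a transgenic bladder to a wild-type one. None of 1140 recomputed differences of the 10 genes passed an adjusted p of 0.05 (lowest 0.257), nor did any of 192 of the wider list (lowest 0.0683, Rspo3 between the transgenic groups with only those arrays in the fit). The causes of the changes below were not tested, beyond fewer arrays or probe sets where a setting removes them.

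Probe sets passing for SMGA/EGFP against wild type numbered 14 in the reported fit, 5 with a filter at the 75th percentile, 8 with only the compared arrays, 1 with wild types of the same run, and 6 to 20 with 1 array left out (6 without SMGA/EGFP 2, 9 without SMGA/EGFP 1 or wild type 3, 4 or 6). For SMAA/EYFP against wild type they numbered 0 (1082 at an unadjusted p of 0.05), but 5 with arrays centred on the median; they were 0 with each array left out. For SMGA/EGFP against SMAA/EYFP they numbered 18, 10 with the stricter filter, 2 with the run as a block, and 4 to 21 with 1 array left out (4 without SMAA/EYFP 2, 9 without SMGA/EGFP 2).

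Among the relations, whose alternatives were chosen after seeing the data, marker relations passing numbered 7, but 4 as deposited, 12 with median centring, 5 with a pseudocount of 64 and 0 to 7 with 1 array left out. Pairs of members passing numbered 6, 7 with median centring and 0 to 7 with 1 array left out.

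Differences that changed sign, in log2, follow. With the run as a block and with wild types of the same run, SMAA/EYFP minus wild type was 0.22 and 0.22 for Wnt5a (0.30 and 0.32 for probe set 1437673_at), 0.16 and 0.16 for Sfrp1 1428136_at and -0.15 and -0.15 for Dkk3 1448669_at; SMGA/EGFP minus wild type was -0.055 and -0.054 for Wnt5a 1437673_at, -0.016 and -0.015 for Wnt5a 1448818_at and -0.013 and -0.012 for Wnt7b. With the block, SMGA/EGFP minus SMAA/EYFP was -0.036 for Wnt5a (-0.36 for 1437673_at), 0.17 for Wnt2 and -0.33 for Dkk2. With median centring, SMGA/EGFP minus wild type was -0.014 for Wnt4 (-0.017 for its second probe set), -0.063 for Dkk3 and -0.079 for its second probe set, and SMGA/EGFP minus SMAA/EYFP was -0.062 and -0.13 for the 2 Dkk3 probe sets. As deposited, SMGA/EGFP minus wild type was 0.0073 for Lef1, 0.018 for Sfrp1 1438620_x_at and 0.0014 for Dkk2, and SMGA/EGFP minus SMAA/EYFP was -0.0100 for Dkk3 1448669_at.

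With 1 array left out, 32 values of 14 differences changed sign. SMGA/EGFP minus wild type ran from -0.00074 to 0.19 for Wnt4, -0.28 to 0.21 for Lef1, -0.17 to 0.063 for Sfrp1 1438620_x_at, -0.14 to 0.058 for Dkk2, -0.027 to 0.12 for Dkk3 and -0.18 to 0.21 for Dkk3 1448669_at. SMAA/EYFP minus wild type ran from -0.45 to 0.28 for Wnt5a, -0.79 to 0.25 for Wnt5a 1437673_at, -0.13 to 0.14 for Sfrp1 1428136_at, -0.11 to 0.035 for Dkk3 and -0.084 to 0.12 for Dkk3 1448669_at. SMGA/EGFP minus SMAA/EYFP ran from -0.34 to 0.015 for Wnt4, -0.0099 to 0.23 for Sfrp1 1438620_x_at and -0.19 to 0.20 for Dkk3 1448669_at.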
